A study of Homo sapiens with 26 samples.

Results

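The genes described here are 42 human genes of autophagy and the lysosome, measured by RNA sequencing in control HCT116 colon carcinoma cells and in sublines labelled as knockouts of CDK8, CDK19 or both, some of them given the BET bromodomain inhibitor JQ1. They were taken by gene symbol from a gene list that was chosen with earlier results of these data known. They fall into 23 genes of the autophagy machinery, 16 genes of the lysosome, 9 of them enzymes, and 3 transcription factors of the MiT/TFE family. All 42 were found among 58039 genes in the table, all had reads in every library, and all 42 were among the 17198 genes that passed the filter on low counts.

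The 26 libraries fell into 9 groups. DKO-C1+JQ1 held 2 libraries of a subline labelled as a CDK8/19 knockout and given JQ1. DKO-C1 held 3 libraries of the same subline without JQ1, and DKO-C2 held 3 libraries of another subline with that label. CDK8KO-C1 and CDK8KO-C2 were sublines labelled as CDK8 knockouts, and CDK19KO-C1 and CDK19KO-C2 sublines labelled as CDK19 knockouts, with 3 libraries each. HCT116+JQ1 held 3 libraries of control HCT116 cells given JQ1, and HCT116 held 3 libraries of control cells without it. All groups share the HCT116 background, and all cells grew as adherent layers in medium with fetal serum. The sources used here do not state the dose or duration of JQ1, or how each subline was made. Nothing says whether libraries of a group came from separate cultures, so the tests measure the spread between these libraries, which may be technical. JQ1 was given to DKO-C1 and to HCT116 but to no other subline.

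Autophagy wraps cell contents in a closed membrane, the autophagosome, and delivers them to the lysosome. The ULK1 kinase complex starts the process, the BECN1 lipid kinase complex marks the membrane, ATG2 proteins feed it with lipid, and a ubiquitin-like cascade joins ATG8 proteins such as LC3B to the growing membrane, where they also hold cargo receptors. The lysosome then digests the cargo with acid hydrolases, in a lumen that the V-ATPase proton pump keeps acidic. TFEB, TFE3 and MITF are transcription factors known to act on many of these genes through short E-box sequences near their start sites. JQ1 displaces BET proteins from acetylated chromatin, and CDK8 and CDK19 are the kinases of the Mediator complex.

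Promoter sequences are shown for 4 lysosomal genes that hold the E-box core and 2 autophagy genes that do not. These sequences are examples, and counts over all members with an entry follow them. They come from RefSeq promoters of GRCh38.p14, which cover 250 bases before to 50 after a start site. Of the 42 members 36 had an entry by symbol. Only the first entry of a gene was searched. SQSTM1, TFEB and MITF had 3 entries each and NBR1, WIPI2 and ATG5 had 2, so their other start sites were not searched. Only bases before the start site that lie in no annotated exon are printed, 5′ to 3′ on the strand of the gene. Capitals mark CACGTG, or the longer TCACGTGA, or TCACGTGA with a G before and a C after it, where the match extends that far. The longest is the consensus of the lysosomal gene element known as CLEAR. All 3 motifs read the same on both strands, and each longer motif contains the shorter.
NEU1, lysosomal sialidase, minus strand of chr6:31862907-31863071.
NEU1: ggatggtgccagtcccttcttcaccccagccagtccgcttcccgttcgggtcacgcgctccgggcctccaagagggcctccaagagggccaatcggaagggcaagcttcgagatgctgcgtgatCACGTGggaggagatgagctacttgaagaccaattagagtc
GAA, acid alpha-glucosidase, plus strand of chr17:80101331-80101555.
GAA: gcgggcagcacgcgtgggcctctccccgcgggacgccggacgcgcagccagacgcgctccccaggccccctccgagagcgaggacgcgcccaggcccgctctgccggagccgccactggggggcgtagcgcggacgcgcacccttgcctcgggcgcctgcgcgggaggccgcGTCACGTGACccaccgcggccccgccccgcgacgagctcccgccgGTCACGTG
LAMP1, the major lysosomal membrane glycoprotein, plus strand of chr13:113296989-113297238.
LAMP1: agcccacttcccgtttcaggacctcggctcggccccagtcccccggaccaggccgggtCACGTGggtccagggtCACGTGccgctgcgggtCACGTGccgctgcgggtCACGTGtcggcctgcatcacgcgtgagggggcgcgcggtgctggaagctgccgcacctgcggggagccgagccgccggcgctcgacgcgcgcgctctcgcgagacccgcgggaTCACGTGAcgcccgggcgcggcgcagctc
MCOLN1, a lysosomal calcium channel, plus strand of chr19:7522374-7522623.
MCOLN1: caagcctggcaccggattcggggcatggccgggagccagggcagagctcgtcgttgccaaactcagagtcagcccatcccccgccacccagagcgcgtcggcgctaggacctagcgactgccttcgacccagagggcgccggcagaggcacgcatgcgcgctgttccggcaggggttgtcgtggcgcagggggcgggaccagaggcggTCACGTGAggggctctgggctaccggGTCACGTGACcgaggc
ATG2A, a lipid transfer protein of the growing autophagosome, minus strand of chr11:64917249-64917459.
ATG2A: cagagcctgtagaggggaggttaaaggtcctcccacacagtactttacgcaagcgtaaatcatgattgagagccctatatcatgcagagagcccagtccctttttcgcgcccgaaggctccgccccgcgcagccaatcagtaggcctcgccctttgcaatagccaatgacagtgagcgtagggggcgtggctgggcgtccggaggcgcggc
ULK1, the kinase that starts autophagy, plus strand of chr12:131894372-131894621.
ULK1: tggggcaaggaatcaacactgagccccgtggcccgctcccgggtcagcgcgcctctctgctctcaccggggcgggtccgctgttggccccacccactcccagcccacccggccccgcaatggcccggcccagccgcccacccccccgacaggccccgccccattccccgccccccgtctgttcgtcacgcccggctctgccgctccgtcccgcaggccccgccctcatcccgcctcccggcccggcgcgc

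CACGTG stood within the 300-base window in 7.26% of 35116 RefSeq promoters. That share counts every entry, while for members the first entry alone was searched. There it was found in 8 of 11 lysosome members with an entry (72.7%), in 2 of 22 autophagy members (9.09%) and in none of the 3 MiT/TFE genes. The autophagy members with it were ATG3 and ATG14, and the lysosome members with an entry that lacked it were CTSL, GLA and TPP1. The 8-base TCACGTGA was found in 5 of the 11 lysosome members, against 0.98% of all promoters. The full 10-base element was found in GAA and MCOLN1, against 0.353% of all promoters. GAA held 2 copies of it, of which the printed stretch ends inside the last, and LAMP1 held 6 copies of the core, 5 of them wholly before the start site. A match describes letters in this window and is not evidence of binding.

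Gene counts per library ranged between 17700864 and 19093094, so depth was nearly even. The smallest member count in any library was 14 reads, for GABARAP, so that gene is measured coarsely. Values below are CPM, meaning reads per gene set against the TMM-scaled gene total of that library, and each is compared with edgeR's quasi-likelihood test in 1 fit of all 26 libraries, with a threshold of 0.05 on the p adjusted by Benjamini-Hochberg over all genes tested. Epithelial marker genes summed to between 3332 and 7066 CPM in every library, while fibroblast markers, nearly all COL1A1, summed to between 13.7 and 30.7 CPM, leukocyte markers stayed at or below 0.708 CPM and endothelial markers at or below 1.04 CPM. The epithelial sum moved with the groups, at 6530 to 6654 CPM in DKO-C1+JQ1 and 5571 to 6094 CPM in DKO-C1, and at 4077 to 4485 CPM in HCT116+JQ1 and 3332 to 3858 CPM in HCT116, and its part in the results below was not tested. In bulk RNA, fewer cells expressing a gene and less of its RNA per cell cannot be told apart. HEXIM1, a gene known to rise under BET inhibition, averaged 203 ± 6.74 CPM in DKO-C1+JQ1 (SD, n = 2) and 88.5 ± 2.55 CPM in DKO-C1 (SD, n = 3). It averaged 230 ± 4.77 CPM in HCT116+JQ1 and 97.1 ± 1.19 CPM in HCT116 (SD, n = 3 each).

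Transcript counts do not check the knockout labels, since the sources used here do not state which parts were deleted. CDK8 averaged 38.4 ± 1.77 CPM in the 6 libraries labelled DKO and 45.4 ± 1.77 CPM in the 6 labelled CDK8KO, against 50.9 ± 1.12 CPM in HCT116 (SD, n = 3). CDK19 averaged 35.9 ± 3.79 CPM in the libraries labelled DKO, which is higher than the 27.3 ± 2.73 CPM of HCT116, and 22.1 ± 3.78 CPM in those labelled CDK19KO. CDK19 was also higher in the libraries labelled CDK8KO, at 34.3 ± 1.93 CPM (SD, n = 6). The CDK19 transcript was thus not lower in the libraries labelled DKO, which does not settle whether that label holds. Directions drawn from DKO libraries below rest on the label.

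Under JQ1, most members of both the autophagy and the lysosome class rose relative to the median gene. In DKO-C1, 24 of the 42 members were called higher with JQ1 and 5 lower, while 24.9% and 25.4% of all genes tested were called higher and lower. In HCT116, 23 members were called higher and 6 lower, with 27.0% and 29.1% among all genes tested. The count of lower calls in DKO-C1 was 2 without DKO-C1+JQ1 replicate 1, and 3 without DKO-C1+JQ1 replicate a, DKO-C1 replicate 1 or DKO-C1 replicate 3. The same 23 members, 13 autophagy and 10 lysosome genes, were called higher in both lines, and ATG3, ATG12, HEXA and TFEB were lower in both. Among all genes tested 19.7% were higher and 19.9% lower in both. The median member changed by 0.20 log2 in DKO-C1 and by 0.16 in HCT116, and the median of all genes tested was 0.00 and -0.02.

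The library values were also compared without a test. In DKO-C1, both JQ1 libraries lay above all 3 untreated libraries for 28 members and below them for 7, against 33.3% and 32.7% of all genes. In HCT116, 26 members lay wholly above and 6 wholly below, against 28.8% and 31.1% of all genes.

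These directions are relative to the median gene. ERCC spike-in RNAs, which the labels name for these 14 HCT116 and DKO libraries, gave another scale. Whether that scale reflects RNA per cell or the amounts of RNA and spike-in put into each library was not tested. With factors from total ERCC counts the median of all genes moved by -0.27 log2 in DKO-C1 and by -0.37 in HCT116. On that scale 7 members were higher and 6 lower under JQ1 in DKO-C1, and 5 were higher and 13 lower in HCT116. Of all genes tested, 5.37% were higher and 28.7% lower there in DKO-C1, and 4.66% higher and 44.6% lower in HCT116. As shares of the members, the counts were 16.7% and 14.3% in DKO-C1, and 11.9% and 31% in HCT116. The 7 in DKO-C1 were MAP1LC3B, GABARAPL1, GABARAPL2, ULK1, ATG2A, NEU1 and ATP6V0D1, and the 5 in HCT116 were MAP1LC3B, ULK1, ATG2A, NEU1 and CTSB. Members such as LAMP1 and, in DKO-C1, SQSTM1 had a positive change on the TMM scale and a negative one on the ERCC scale, where neither passed the test.

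The shares of autophagy and lysosomal enzyme members called higher were close in DKO-C1 and further apart in HCT116. That contrast between lines rests on 1 enzyme, CTSL, which was called higher in DKO-C1 only. In DKO-C1, 13 of 23 autophagy members (56.5%) were higher with JQ1 and 3 lower, with a median of 0.19 log2. Of the 9 lysosomal enzymes 5 were higher (55.6%) and 1 lower, with a median of 0.22. In HCT116, 13 autophagy members were higher and 3 lower, with a median of 0.15. There, 4 enzymes were higher (44.4%) and 2 lower, with a median of 0.17. The 7 other lysosome members, which are membrane proteins, pump subunits and the activator PSAP, were called higher except CLCN7 in both lines. Whether the classes differed was not tested.

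**Figure D1:**
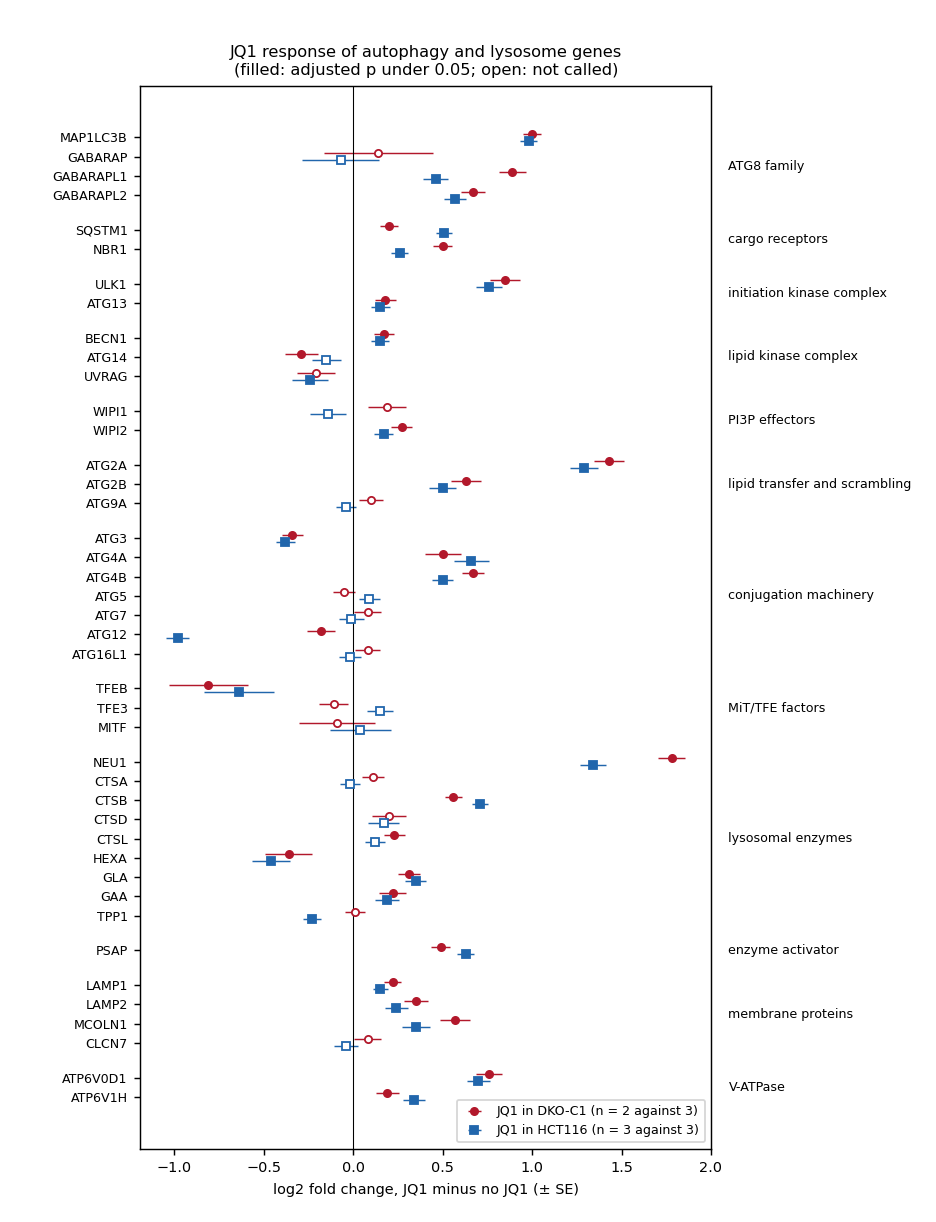
Log2 fold change with its standard error of each of the 42 members under JQ1, in DKO-C1 (circles, 2 against 3 libraries) and in HCT116 (squares, 3 against 3 libraries), grouped by role; filled symbols passed an adjusted p of 0.05. Most symbols lie right of 0, NEU1 and ATG2A farthest at 1.78 and 1.43 in DKO-C1, and ATG12, TFEB, HEXA and ATG3 lie left of it in both lines; changes are relative to the median gene, and with ERCC factors the median gene stands at -0.27 in DKO-C1 and -0.39 in HCT116.

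The ATG8 family, the ubiquitin-like proteins that coat the autophagosome, rose relative to the median gene in 3 of 4 members in both lines. MAP1LC3B, which encodes LC3B, had 204 and 192 CPM in DKO-C1+JQ1, against 100, 96.8 and 101 CPM in DKO-C1. It had 147, 147 and 155 CPM in HCT116+JQ1, against 74.5, 80.7 and 73.3 CPM in HCT116. No treated library overlapped an untreated one of its line, and the change was nearly the same in both, at 1.99-fold in DKO-C1 (SE 0.052 on the log2 scale, adjusted p = 2.92e-18) and 1.97-fold in HCT116 (log2 change 0.98 ± 0.049, SE here and in later changes, adjusted p = 5.79e-19). GABARAPL1 had 32.3 and 30.5 CPM in DKO-C1+JQ1, against 16.3, 17.5 and 17 CPM in DKO-C1. It had 24.5, 22.1 and 22.5 CPM in HCT116+JQ1, against 17.3, 16.9 and 15.9 CPM in HCT116. The groups did not overlap in either line, and the log2 change was 0.89 ± 0.075 in DKO-C1 (adjusted p = 1.7e-12) and 0.46 ± 0.072 in HCT116 (adjusted p = 8.64e-07). GABARAPL2 averaged 56.7 ± 0.747 CPM in DKO-C1+JQ1 (SD, n = 2) and 35.5 ± 2.35 CPM in DKO-C1 (SD, n = 3), and 57.5 ± 2.58 CPM in HCT116+JQ1 and 38.7 ± 2.31 CPM in HCT116. GABARAP itself was listed at 0.876 and 1.3 CPM in DKO-C1+JQ1 and between 0.847 and 1.24 CPM in DKO-C1, with no call in either line. Of its exon bases 30.5% lie in another gene annotated on the same strand and 25.2% in one on the opposite strand, so its count is uncertain. Scaled per kilobase of exon, MAP1LC3B led the family in DKO-C1+JQ1 at 37.3 ± 1.6 CPM per kb, followed by GABARAPL2 at 18.7 ± 0.256, GABARAPL1 at 7.68 ± 0.312 and GABARAP at 0.48 ± 0.132 (SD, n = 2). HCT116 held the same order, with 14.3 ± 0.748, 12.8 ± 0.761, 4.09 ± 0.176 and 0.846 ± 0.128 CPM per kb (SD, n = 3), where MAP1LC3B and GABARAPL2 stood close together.

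Cargo receptors carry ubiquitin-tagged material to ATG8 proteins. SQSTM1, which encodes the receptor p62, had 218 and 225 CPM in DKO-C1+JQ1, against 192, 191 and 196 CPM in DKO-C1. It had 351, 332 and 330 CPM in HCT116+JQ1, against 235, 239 and 239 CPM in HCT116. The groups did not overlap in either line, and SQSTM1 rose by 0.20 ± 0.050 log2 in DKO-C1 (adjusted p = 0.00124) and by 0.51 ± 0.045 in HCT116 (adjusted p = 3.56e-12), relative to the median gene. With ERCC factors its change was -0.07 in DKO-C1 and 0.14 in HCT116, and neither passed the test. Of the SQSTM1 exon bases 22% lie in genes annotated on the opposite strand, so its count is less certain. NBR1, a related receptor, had 112 and 110 CPM in DKO-C1+JQ1, against 78.2, 76.1 and 80.5 CPM in DKO-C1, and 102, 98.2 and 101 CPM in HCT116+JQ1, against 87.6, 82.4 and 81.6 CPM in HCT116. Its log2 change was 0.50 ± 0.054 in DKO-C1 and 0.26 ± 0.049 in HCT116.

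Of the initiation kinase complex, ULK1 had 44 and 47.4 CPM in DKO-C1+JQ1, against 22.2, 26.5 and 27.3 CPM in DKO-C1. It had 50.7, 49.2 and 47.2 CPM in HCT116+JQ1, against 32.5, 26.7 and 27.6 CPM in HCT116. It rose by 0.85 ± 0.083 log2 in DKO-C1 (adjusted p = 5.91e-11) and by 0.76 ± 0.074 in HCT116 (adjusted p = 4.77e-11), with no overlap in either line. ATG13, the adaptor of that complex, was called higher by 0.18 ± 0.060 and 0.15 ± 0.053, a small change that lost its call without either of 2 libraries in DKO-C1 and without 1 in HCT116.

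The lipid kinase complex did not move as a group. BECN1, its scaffold, was called higher by 0.17 ± 0.055 log2 in DKO-C1 and 0.15 ± 0.049 in HCT116, and ATG14, which targets the complex to autophagosome sites, was called lower in DKO-C1 by -0.29 ± 0.093 and was at -0.15 ± 0.080 without a call in HCT116. UVRAG, the subunit of the endosomal form, was at -0.21 ± 0.11 without a call in DKO-C1 and was called lower by -0.24 ± 0.10 in HCT116. The calls of BECN1, ATG14 and UVRAG were each lost without at least 1 single library. Of the PI3P effectors, which read the lipid the complex makes, WIPI2 averaged 77.7 ± 1.48 CPM in DKO-C1+JQ1 (SD, n = 2) and 64.4 ± 1.36 CPM in DKO-C1 (SD, n = 3), and 92.9 ± 1.38 CPM in HCT116+JQ1 and 82.7 ± 2.89 CPM in HCT116 (SD, n = 3 each), and was called higher in both lines. WIPI1 was called in neither.

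Lipid transfer held the largest autophagy change. ATG2A, on chromosome 11 between 64894546 and 64917248 of hg38, had 44.6 and 50 CPM in DKO-C1+JQ1, against 16.1, 18.8 and 17.7 CPM in DKO-C1. It had 60.1, 53.6 and 51.2 CPM in HCT116+JQ1, against 24.2, 19.9 and 23.2 CPM in HCT116. The lowest treated library stood well above the highest untreated one in both lines. The log2 change was 1.43 ± 0.086 in DKO-C1 (adjusted p = 1.78e-16), or 2.7-fold, and 1.29 ± 0.076 in HCT116 (adjusted p = 7.1e-17), or 2.45-fold. Its paralogue ATG2B averaged 24.9 ± 0.668 CPM in DKO-C1+JQ1 (SD, n = 2) and 16.1 ± 1.36 CPM in DKO-C1 (SD, n = 3), and 24.8 ± 1.95 CPM in HCT116+JQ1 and 17.6 ± 0.98 CPM in HCT116 (SD, n = 3 each), a smaller rise of 0.63 ± 0.083 and 0.50 ± 0.074 log2. ATG9A, the lipid scramblase that partners ATG2, was at 0.10 ± 0.067 and -0.04 ± 0.056 and passed in neither line. A same-strand gene covers 38.8% of its exon bases, so its count is uncertain.

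The 7 genes that join ATG8 proteins to the membrane split in both directions. The proteases ATG4A and ATG4B, which trim ATG8 proteins before conjugation, were called higher in both lines. ATG4A rose by 0.50 ± 0.10 log2 in DKO-C1 and by 0.66 ± 0.097 in HCT116, and ATG4B by 0.67 ± 0.064 and 0.50 ± 0.058. ATG12, the ubiquitin-like protein of the ATG12-ATG5 conjugate, had 67.6 and 63.5 CPM in DKO-C1+JQ1, against 78.8, 70.8 and 73.6 CPM in DKO-C1. It had 76.4, 86.1 and 84.9 CPM in HCT116+JQ1, against 142, 179 and 165 CPM in HCT116. All treated libraries lay below the untreated ones of their line, but the fall was -0.98 ± 0.065 log2 in HCT116 (adjusted p = 1.9e-15) and -0.18 ± 0.076 in DKO-C1 (adjusted p = 0.0449), where untreated cells already stood lower. The call in DKO-C1 was lost without any of 4 of the 5 libraries, with adjusted p between 0.0624 and 0.333. ATG3, the E2-like enzyme that attaches ATG8 proteins to lipid, had 53.1 and 50.3 CPM in DKO-C1+JQ1, against 66.8, 64.5 and 65.7 CPM in DKO-C1. It had 53.7, 50.8 and 54.5 CPM in HCT116+JQ1, against 70.3, 67.9 and 69 CPM in HCT116. It fell by 0.34 log2 in DKO-C1 (SE 0.059, adjusted p = 5.98e-06) and by 0.38 in HCT116 (SE 0.052, adjusted p = 8.63e-08). ATG5, ATG7 and ATG16L1, the other components of the cascade, lay between -0.05 and 0.09 log2 in both lines and were not called.

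Of the MiT/TFE factors, TFEB fell in both lines, while TFE3 and MITF were called in neither. TFEB had between 28 and 88 reads per library and MITF between 22 and 73, so both are measured coarsely. Neither reached 5 CPM in any group mean, so a filter at that level, which kept 39 members, does not test them. TFEB had 1.92 and 1.79 CPM in DKO-C1+JQ1, against 2.54, 4.07 and 3.17 CPM in DKO-C1. It had 1.6, 2.33 and 2.05 CPM in HCT116+JQ1, against 3.46, 2.8 and 3.05 CPM in HCT116. The groups did not overlap, and the log2 change was -0.81 ± 0.22 in DKO-C1 (adjusted p = 0.00224) and -0.64 ± 0.20 in HCT116 (adjusted p = 0.00609). TFE3 was the most abundant of the family per length, at 6.05 ± 0.33 CPM per kb in DKO-C1+JQ1 (SD, n = 2) and 6.08 ± 0.129 in HCT116+JQ1 (SD, n = 3). TFEB stood at 0.328 ± 0.0163 and 0.353 ± 0.0652 CPM per kb in those groups and MITF at 0.285 ± 0.0817 and 0.413 ± 0.0269. These factors are also known to be set by where the protein sits in the cell, which RNA counts do not measure.

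Among the lysosomal enzymes NEU1 showed the largest rise of the 42 members in both lines, by log2 change. NEU1 is the lysosomal sialidase, on chromosome 6 between 31857659 and 31862906 of hg38. It had 61.2 and 59.7 CPM in DKO-C1+JQ1, against 19, 16.3 and 17.6 CPM in DKO-C1. It had 46.8, 39.9 and 42 CPM in HCT116+JQ1, against 17.4, 16.8 and 16.5 CPM in HCT116. The change was 1.78 ± 0.077 log2 in DKO-C1 (adjusted p = 1.31e-20), or 3.43-fold, and 1.34 ± 0.074 in HCT116 (adjusted p = 9.62e-18), or 2.54-fold. The untreated libraries of the lines overlapped, so the lines parted under JQ1. CTSB, a cysteine protease and the most abundant of these enzymes in CPM, had 367 and 360 CPM in DKO-C1+JQ1, against 240, 246 and 255 CPM in DKO-C1. It had 311, 298 and 304 CPM in HCT116+JQ1, against 190, 185 and 183 CPM in HCT116. It rose by 0.56 ± 0.048 log2 in DKO-C1 (adjusted p = 2.74e-12) and by 0.71 ± 0.044 in HCT116 (adjusted p = 3.1e-16), with no overlap.

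The remaining enzymes changed little or fell. GLA, alpha-galactosidase A, rose by 0.31 ± 0.062 log2 in DKO-C1 and 0.35 ± 0.058 in HCT116, and GAA by 0.22 ± 0.074 and 0.19 ± 0.068, calls that GAA lost without either of 2 libraries in each line. CTSL, a cathepsin, was called higher in DKO-C1 at 0.23 ± 0.060 and was at 0.12 ± 0.056 without a call in HCT116. CTSA, the protective protein that stabilises NEU1, stayed at 0.11 ± 0.062 and -0.02 ± 0.057 without a call, in contrast with its partner. HEXA, the alpha chain of beta-hexosaminidase, had 6.96 and 6.45 CPM in DKO-C1+JQ1, against 9.26, 8.66 and 7.95 CPM in DKO-C1, and 9.9, 7.91 and 8.98 CPM in HCT116+JQ1, against 13.7, 11.2 and 12 CPM in HCT116. It was called lower by -0.36 ± 0.13 log2 in DKO-C1 (adjusted p = 0.0192) and -0.46 ± 0.11 in HCT116 (adjusted p = 0.000281). The DKO-C1 call was lost without DKO-C1+JQ1 replicate 1, without DKO-C1+JQ1 replicate a or without DKO-C1 replicate 1, with adjusted p between 0.0511 and 0.16. TPP1, a peptidase, was at 0.01 ± 0.057 in DKO-C1 and was called lower by -0.23 ± 0.052 in HCT116. CTSD, an aspartic protease, had 69.4 and 81.6 CPM in DKO-C1+JQ1, against 63.2, 64.5 and 69.8 CPM in DKO-C1, and 64.5, 52.9 and 58.1 CPM in HCT116+JQ1, against 55.2, 52.7 and 48 CPM in HCT116. These groups overlapped in both lines and the changes of 0.20 ± 0.093 and 0.17 ± 0.087 were not called, with adjusted p = 0.0739 and 0.0923. With no filter on low counts CTSD passed in both, with adjusted p = 0.0152 and 0.0286. A same-strand gene covers 41.7% of the CTSD exon bases.

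Beyond the enzymes, both V-ATPase subunits rose relative to the median gene. ATP6V0D1, of the membrane sector, had 87.3 and 87 CPM in DKO-C1+JQ1, against 50, 50.4 and 53.8 CPM in DKO-C1. It had 91.7, 88.2 and 83.5 CPM in HCT116+JQ1, against 51.7, 55.4 and 55.3 CPM in HCT116. Levels and changes were close in both lines, at 0.76 ± 0.073 and 0.70 ± 0.066 log2. ATP6V1H, of the cytosolic sector, was called higher by 0.19 ± 0.063 in DKO-C1 and 0.34 ± 0.059 in HCT116, and lost the DKO-C1 call without DKO-C1+JQ1 replicate a (adjusted p = 0.0518). PSAP, which encodes the saposin activators of glycolipid hydrolases, had 540 and 531 CPM in DKO-C1+JQ1, against 371, 379 and 399 CPM in DKO-C1, and 587, 565 and 608 CPM in HCT116+JQ1, against 373, 378 and 390 CPM in HCT116. It rose by 0.49 ± 0.053 and 0.63 ± 0.048 log2. MCOLN1 rose by 0.57 ± 0.084 in DKO-C1 and by 0.35 ± 0.078 in HCT116.

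LAMP1 had 423 and 419 CPM in DKO-C1+JQ1, against 348, 368 and 369 CPM in DKO-C1, and 336, 335 and 362 CPM in HCT116+JQ1, against 314, 303 and 312 CPM in HCT116. The groups did not overlap, and the small changes of 0.22 ± 0.046 (adjusted p = 0.000136) and 0.15 ± 0.042 log2 (adjusted p = 0.00204) became -0.05 and -0.21 with ERCC factors. LAMP2, the other abundant membrane glycoprotein and a receptor of chaperone-mediated autophagy, had 134 and 121 CPM in DKO-C1+JQ1, against 102, 98 and 102 CPM in DKO-C1, and rose by 0.35 ± 0.069. In HCT116+JQ1 it had 79.9, 90.9 and 92 CPM, against 75.6, 74.9 and 72.6 CPM in HCT116, a rise of 0.24 ± 0.064. CLCN7, the chloride-proton exchanger of the lysosome, was at 0.08 ± 0.075 and -0.04 ± 0.065 and was called in neither line.

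Most of these calls did not rest on a single library. Of the 29 members called in DKO-C1, 20 higher and 2 lower calls held whichever of the 5 libraries was left out, and of the 29 called in HCT116, 20 higher and 5 lower calls held whichever of the 6 was left out. For 31 members, at most 10% of exon bases overlapped another gene on either strand and at most 10% of their 50-base words occurred in another gene's transcripts. Among these 22 were higher and 4 lower in DKO-C1, and 21 were higher and 4 lower in HCT116. All 11 lysosome members among the 31 were higher in DKO-C1, and 10 of the 11 in HCT116. Members outside the 31 include SQSTM1, BECN1 and CTSA, with 22%, 17.1% and 28.5% of exon bases in opposite-strand genes.

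JQ1 changes were set beside the E-box matches as a description. Members with CACGTG in the promoter window had a median JQ1 change of 0.21 log2 in DKO-C1 and 0.16 in HCT116 (10 genes), and members without it 0.20 and 0.15 (26 genes). The motif-bearing genes ran between -0.34 and 1.78 in DKO-C1, and the others between -0.81 and 1.43. NEU1, with 1 core shown above, and LAMP1, with 6, stood at 1.78 and 0.22 there. ATG3 and ATG14, the autophagy members with the core, had negative changes in both lines. Lysosome members with the core had medians of 0.22 in DKO-C1 and 0.18 in HCT116 (8 genes), and those without it 0.23 and 0.12 (3 genes).

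**Figure D2:**
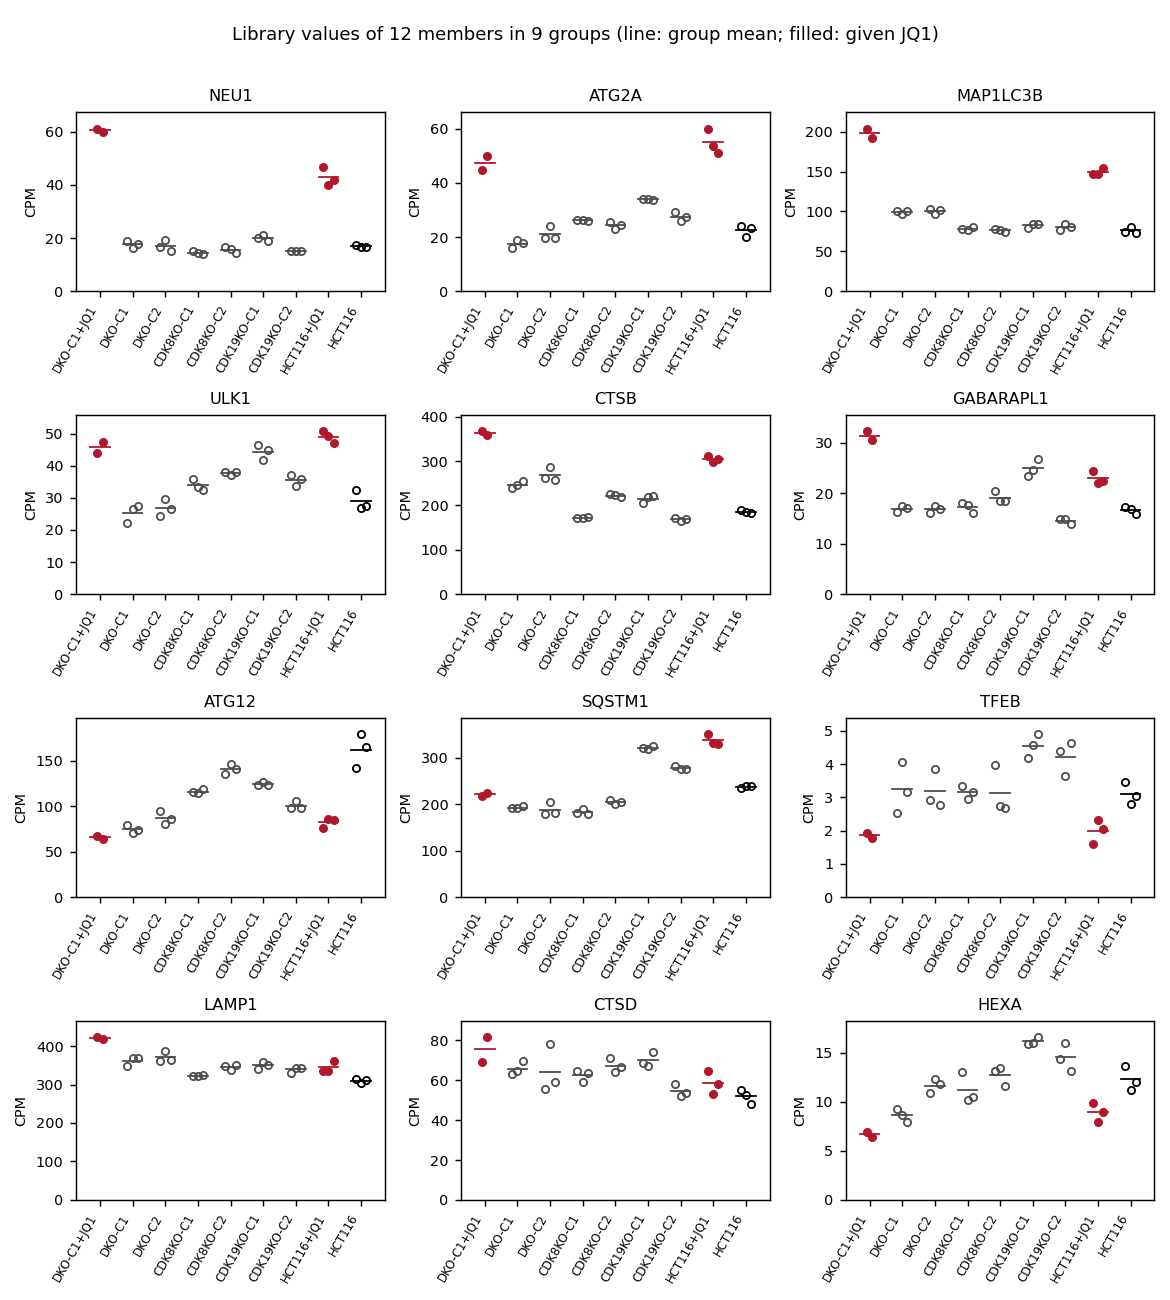
CPM on a linear axis in each of the 26 libraries for 12 members, by group, with a line at each group mean; filled points are libraries given JQ1 and open points are not. NEU1, ATG2A, MAP1LC3B, ULK1, CTSB and GABARAPL1 are higher in the JQ1 groups than in the same line without JQ1, while ATG12 lies between 142 and 179 CPM in HCT116 and below that range in every other group except CDK8KO-C2, where 1 library reaches 146 CPM.

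Between the lines, 5 of the 42 members responded differently to JQ1, where 8.59% of all genes tested did so, 3.90% with a higher and 4.70% with a lower response in DKO-C1. The member count was only little above the share of all genes. The difference is the DKO-C1 response minus the HCT116 response, from the interaction term of the same fit. It was positive for ATG12 at 0.80 ± 0.099 log2 (adjusted p = 2.87e-07), which fell by far less in DKO-C1. It was also positive for NEU1 at 0.44 ± 0.11 (adjusted p = 0.00661), GABARAPL1 at 0.43 ± 0.10 (adjusted p = 0.00561) and NBR1 at 0.24 ± 0.073 (adjusted p = 0.0296), each of which rose more in DKO-C1. It was negative for SQSTM1 at -0.31 ± 0.068 (adjusted p = 0.00166), which rose less in DKO-C1. The differences of ATG12, NEU1 and SQSTM1 held whichever of the 11 libraries was left out. GABARAPL1 lost its call without DKO-C1+JQ1 replicate 1 (0.38, adjusted p = 0.0583), and NBR1 without any of 5 libraries (adjusted p between 0.0714 and 0.157). With ERCC factors, which move the median difference of all genes by 0.10 log2 and widen the errors, ATG12 alone was called, at 0.91 (adjusted p = 0.0159). The other 37 members were not called. TPP1 stood nearest to the threshold at 0.24 ± 0.077 (adjusted p = 0.0502), and 1 further member was called higher, beside the same 5, with DESeq2, with DESeq2 size factors, with a filter at 5 CPM, and without HCT116 replicate 2 or DKO-C1 replicate 3. MAP1LC3B, for one, stood at 0.02 ± 0.071.

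With JQ1 present, the lysosome members stood higher in DKO-C1+JQ1 than in HCT116+JQ1, and the autophagy members were mixed. Of the 16 lysosome members 12 were called higher in DKO-C1+JQ1 and 3 lower, with 8 of the 9 enzymes higher, while 24.3% and 22.4% of all genes tested were called higher and lower. Of the 23 autophagy members 6 were higher and 7 lower. Over the 42 members 18 were higher and 11 lower, and the lower count was 6 without HCT116+JQ1 replicate 1 or DKO-C1+JQ1 replicate 1, and 7 without DKO-C1+JQ1 replicate a or with DESeq2. The lysosome medians were 0.25 log2 under JQ1 and 0.11 for untreated DKO-C1 against HCT116, where 8 of the 16 were higher and 2 lower, beside 27.0% and 28.9% of all genes. LAMP2 led at 0.54 ± 0.069 and NEU1 followed at 0.50 ± 0.071. HEXA was the enzyme called lower, at -0.41 ± 0.13. Of the lysosome calls 6 were lost without at least 1 single library, among them CTSD at 0.25 without DKO-C1+JQ1 replicate a (adjusted p = 0.0919). With ERCC factors, which move the median of all genes by -0.91 log2 here, all 42 members were lower in DKO-C1+JQ1, as were 78.9% of all genes tested.

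In the libraries labelled DKO without JQ1, autophagy members were more often lower and lysosome members more often higher than in HCT116. Over both sublines 4 autophagy members were called higher and 11 lower, with a median of -0.12 log2, and 7 lysosome members higher and 2 lower, with a median of 0.09. Among all genes tested 29.5% were called higher and 32.1% lower. Whether the classes differed was not tested. ATG12 had 78.8, 70.8 and 73.6 CPM in DKO-C1 and 95.1, 80.1 and 86.3 CPM in DKO-C2, against 142, 179 and 165 CPM in HCT116. All 6 DKO libraries lay below the 3 controls, a change of -1.01 ± 0.054 log2 (adjusted p = 7.88e-19). GABARAP averaged 0.974 ± 0.187 CPM in the DKO libraries (SD, n = 6) and 1.91 ± 0.289 CPM in HCT116 (SD, n = 3), at -0.97 ± 0.21, from few reads. ATG9A was at -0.77 ± 0.049, with 47.1 ± 4.1 CPM in DKO (SD, n = 6) and 80.1 ± 1.11 CPM in HCT116 (SD, n = 3). The receptor SQSTM1 was lower by -0.32 ± 0.039, and MITF, from few reads, by -0.80 ± 0.16.

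The members called higher in DKO were led by CTSB. It had 240, 246 and 255 CPM in DKO-C1 and 262, 286 and 258 CPM in DKO-C2, against 190, 185 and 183 CPM in HCT116, with no overlap and a log2 change of 0.47 ± 0.039 (adjusted p = 2.83e-13). LAMP2 had 102, 98 and 102 CPM in DKO-C1 and 110, 85.6 and 103 CPM in DKO-C2, against 75.6, 74.9 and 72.6 CPM in HCT116, at 0.43 ± 0.056 (adjusted p = 2.39e-08). GAA stood at 0.40 ± 0.059, MAP1LC3B at 0.39 ± 0.043, ATP6V1H at 0.36 ± 0.052, CTSD at 0.32 ± 0.075 and LAMP1 at 0.24 ± 0.037. NEU1 was at 0.03 ± 0.071 and TFEB at 0.05 ± 0.15, neither of them called. All of these are relative to the median gene. With ERCC factors, which move that median by -0.90 log2, all 42 members were lower in DKO, as were 83.3% of all genes tested. Whether that shift reflects RNA per cell or the amounts of RNA and spike-in used was not tested. ULK1, ATG2A, ATG3, ATG7 and HEXA were called in DKO but lost the call without at least 1 single library.

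In the libraries labelled CDK8KO the members split in both directions. Of the 42 members 8 were called higher and 12 lower, against 19.5% and 21.0% of all genes tested, with a median of 0.02 log2. The count of higher members was thus near the share of all genes, and the count of lower members somewhat above it. The higher count was 14 in subline C2 alone and 13 when only the compared libraries were fitted. There, 5840 of 17198 and 7850 of 15949 genes tested were called in either direction. CTSD averaged 64.9 ± 4.04 CPM in CDK8KO (SD, n = 6) and 52 ± 3.62 CPM in HCT116 (SD, n = 3), at 0.32 ± 0.075 (adjusted p = 0.000753). ULK1 had 36, 33.4 and 32.3 CPM in CDK8KO-C1 and 38.1, 37 and 37.9 CPM in CDK8KO-C2, against 32.5, 26.7 and 27.6 CPM in HCT116, at 0.30 ± 0.066 (adjusted p = 0.000326), where 1 CDK8KO library overlapped the controls. CTSL had 35.4, 38.1 and 35.9 CPM in CDK8KO-C1 and 32.6, 38.4 and 34.8 CPM in CDK8KO-C2, against 50.3, 48.8 and 50 CPM in HCT116, a clean separation at -0.47 ± 0.049 (adjusted p = 6.89e-10). MITF was called lower by -0.63 ± 0.16 (adjusted p = 0.00151), but HCT116 replicate 2 held 3.67 CPM beside 2.47 and 2.51 CPM in the other HCT116 libraries, and without it the change was -0.42 with adjusted p = 0.0619. Both cargo receptors were lower, SQSTM1 by -0.29 ± 0.039 and NBR1 by -0.28 ± 0.043. LAMP1, at 0.11 ± 0.036 (adjusted p = 0.0134), also lost its call without HCT116 replicate 2, at 0.10 with adjusted p = 0.0771, and it reversed to -1.11 with ERCC factors.

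In the libraries labelled CDK19KO, 19 members were called higher and 5 lower, against 21.0% and 22.0% of all genes tested. The sublines did not share this count, since C1 alone gave 25 higher and 5 lower, and C2 alone 10 higher and 8 lower, where 12 of the 24 calls were lost and 1 turned round. Of 17198 genes tested, 7926 were called in either direction in C1 alone and 7293 in C2 alone. The member counts in C2 alone were near that share of all genes. The lower count was 3 without HCT116 replicate 1, without HCT116 replicate 3 or with no filter on low counts. TFEB had 4.2, 4.57 and 4.9 CPM in CDK19KO-C1 and 4.4, 3.65 and 4.64 CPM in CDK19KO-C2, against 3.46, 2.8 and 3.05 CPM in HCT116. All 6 libraries lay above the controls, at 0.50 ± 0.15 log2 (adjusted p = 0.00543), from few reads. ULK1 had 46.5, 41.9 and 44.8 CPM in CDK19KO-C1 and 37, 33.7 and 35.8 CPM in CDK19KO-C2, against 32.5, 26.7 and 27.6 CPM in HCT116, at 0.45 ± 0.066 (adjusted p = 6.76e-07). SQSTM1 had 322, 320 and 325 CPM in CDK19KO-C1 and 283, 277 and 276 CPM in CDK19KO-C2, against 235, 239 and 239 CPM in HCT116, at 0.34 ± 0.039 (adjusted p = 8.67e-09). That direction was opposite to its change in CDK8KO and DKO. ATG12, at -0.54 ± 0.054 (adjusted p = 2.42e-10), and ATG3, at -0.19 ± 0.044 (adjusted p = 0.000551), were lower with no overlap. Of the 24 calls, 9 were lost without at least 1 single library, among them CTSD at 0.20 (adjusted p = 0.0732) and GABARAPL1 at 0.16 (adjusted p = 0.0904) without HCT116 replicate 3. These changes share the HCT116 libraries with the other knockout comparisons. The labels of the single knockouts name no spike-in, but ERCC reads were present, and with factors from them all 42 members were lower in CDK8KO and in CDK19KO, with the median of all genes moved by -1.22 and -1.65 log2. On that scale 94.3% and 97.8% of all genes tested were lower too, so the member counts were near those shares. The ERCC share of counts also varied within a group, from 2.17% to 3.27% in CDK8KO-C2. What the shift reflects was not tested.

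**Figure D3:**
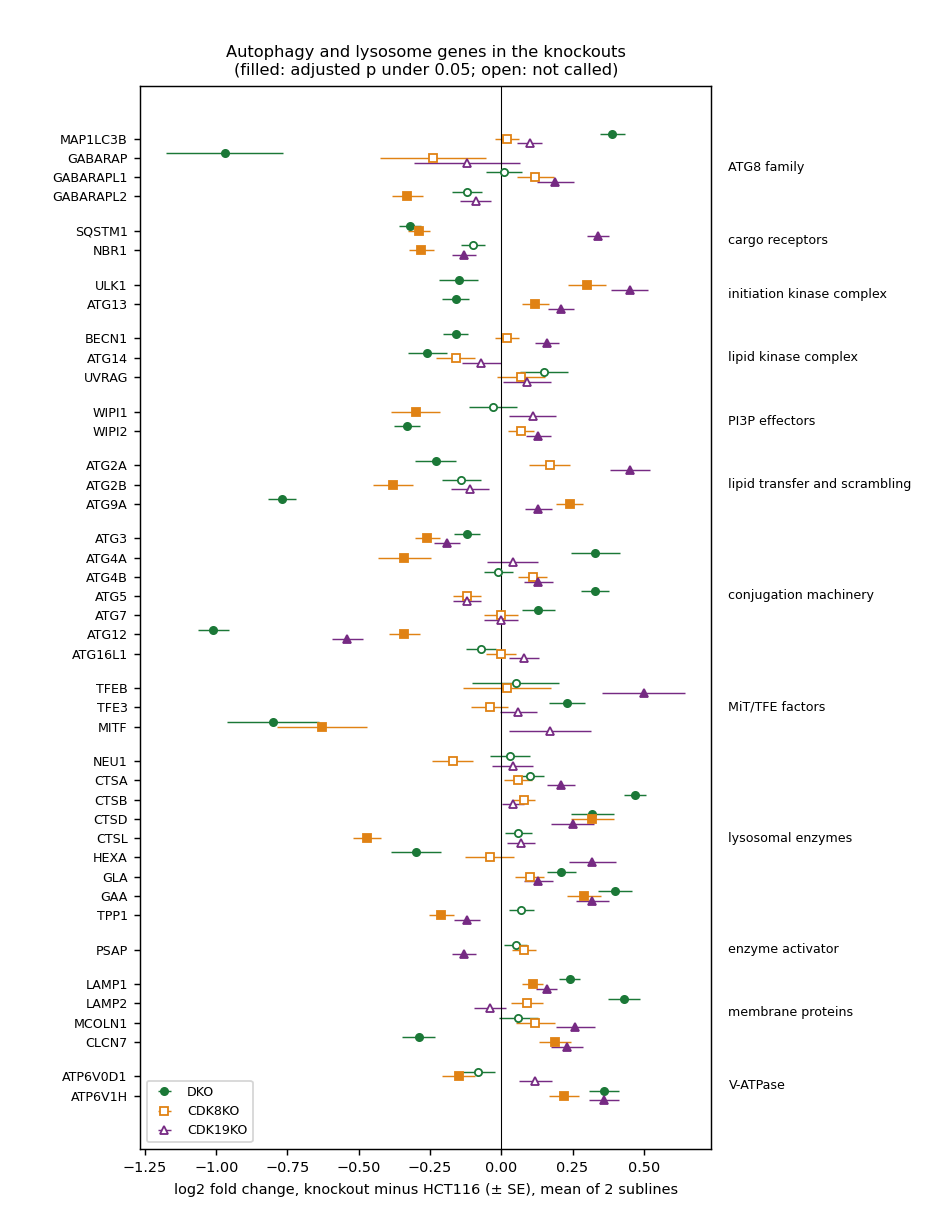
Log2 fold change with its standard error of the 42 members in DKO (circles), CDK8KO (squares) and CDK19KO (triangles), each the mean of 2 sublines against HCT116; filled symbols passed an adjusted p of 0.05. ATG12 lies left of 0 in all 3 knockouts, at -1.01, -0.34 and -0.54, while SQSTM1 lies right of 0 in CDK19KO at 0.34 and left in DKO and CDK8KO. Changes are relative to the median gene. With ERCC factors all 42 members are lower, beside 83.3%, 94.3% and 97.8% of all genes tested in DKO, CDK8KO and CDK19KO.

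Sublines of the same genotype differed, and most of all for CDK19KO. Between CDK19KO-C1 and CDK19KO-C2, 25 members were higher in C1 and 3 lower, while 23.8% and 24.2% of all genes tested were higher and lower. GABARAPL1 had 23.4, 24.6 and 26.9 CPM in CDK19KO-C1 and 14.9, 14.9 and 13.9 CPM in CDK19KO-C2, a difference of 0.77 ± 0.072 log2 (adjusted p = 2.37e-11). The HCT116 libraries, at 17.3, 16.9 and 15.9 CPM, lay between the sublines, so their mean change of 0.19 describes neither. WIPI1 ran the other way, at -0.68 ± 0.095, as did LAMP2 at -0.54 ± 0.066 and ATG3 at -0.19 ± 0.052. In CDK8KO, 4 members were higher in C1 and 9 lower, against 11.5% and 9.63% of all genes, with CTSB at -0.37 ± 0.044. In DKO, 2 were higher in C1 (MITF at 0.80 ± 0.21 and CTSL at 0.19 ± 0.055) and 2 lower (HEXA at -0.43 ± 0.11 and ATG12 at -0.23 ± 0.066), against 3.67% and 5.75% of all genes. Each subline is a single derived line, so genotype and subline cannot be told apart from 1 subline, and JQ1 was tested in DKO-C1 only.

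The other genes of the pathway were taken from 5 lists of 114 genes, of which 109 were tested. Like the members, these lists were chosen with earlier results of these data known, so their counts are not separate support. Of the 109, 69 were called higher and 11 lower in DKO-C1, and 67 higher and 12 lower in HCT116, relative to the median gene. The shares of all genes tested were 24.9% and 25.4% in DKO-C1, and 27.0% and 29.1% in HCT116. With ERCC factors the list counts were 13 higher and 13 lower in DKO-C1, and 9 higher and 26 lower in HCT116. On that scale 5.37% and 28.7% of all genes tested were higher and lower in DKO-C1, and 4.66% and 44.6% in HCT116. Of 28 other autophagy genes 19 were higher and 1 lower in DKO-C1, and 19 were higher and none lower in HCT116. ZFYVE1, whose product DFCP1 marks sites of autophagosome formation, averaged 22.7 ± 0.0285 CPM in DKO-C1+JQ1 (SD, n = 2) and 8.81 ± 0.924 CPM in DKO-C1 (SD, n = 3), a rise of 1.37 ± 0.094 log2, and rose by 1.07 ± 0.087 in HCT116. OPTN, a cargo receptor of damaged mitochondria, averaged 33.6 ± 0.0274 CPM in DKO-C1+JQ1 and 25.6 ± 1.33 CPM in DKO-C1, and 29 ± 1.95 CPM in HCT116+JQ1 and 11.9 ± 1.86 CPM in HCT116. Its rise was smaller in DKO-C1, at 0.39 ± 0.082 against 1.28 ± 0.084 log2, and that difference of -0.89 ± 0.12 passed the test (adjusted p = 9.34e-07). EPG5, a tether between autophagosome and lysosome, rose by 0.80 ± 0.069 in DKO-C1 and by 0.62 ± 0.066 in HCT116. WDR45, a PI3P effector, was lower by -0.46 ± 0.098 in DKO-C1 and at 0.00 ± 0.080 in HCT116, with 13.9% of its exon bases in a same-strand gene.

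Of 29 other lysosomal enzymes and activators 21 were higher and 4 lower in DKO-C1, and 19 were higher and 4 lower in HCT116. LGMN, an asparaginyl endopeptidase, averaged 100 ± 2.19 CPM in DKO-C1+JQ1 and 47.7 ± 2.48 CPM in DKO-C1, a rise of 1.07 ± 0.063 log2, and rose by 0.79 ± 0.063 in HCT116. IDUA, alpha-L-iduronidase, rose by 1.02 ± 0.12 and 1.16 ± 0.11, and SMPD1, acid sphingomyelinase, by 0.90 ± 0.11 and 1.01 ± 0.13. The cathepsins CTSC and CTSH fell. CTSC was at -0.77 ± 0.078 in DKO-C1 and -0.94 ± 0.065 in HCT116, and CTSH at -0.50 ± 0.13 and -1.06 ± 0.12. Among 18 membrane and sorting genes 11 were higher and 2 lower in DKO-C1, and 10 higher and 1 lower in HCT116. SORT1, a sorting receptor, rose by 0.77 ± 0.052 and 0.95 ± 0.051. NPC1, the cholesterol exporter, rose by 0.56 ± 0.056 and 0.60 ± 0.053, and OSTM1, the partner of CLCN7, by 0.63 ± 0.081 and 0.51 ± 0.085. The endolysosomal cation channel gene TPCN2 was lower in both lines, by -0.38 ± 0.11 and -0.39 ± 0.098, and TPCN1 was lower by -0.37 ± 0.065 in DKO-C1 and at 0.11 ± 0.060 in HCT116.

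The V-ATPase list held 14 further subunits, and 11 of them were higher and none lower in each line. ATP6V1A, the catalytic subunit, averaged 134 ± 4.47 CPM in DKO-C1+JQ1 and 78.4 ± 3.2 CPM in DKO-C1, at 0.77 ± 0.065 log2, and 122 ± 10 CPM in HCT116+JQ1 and 76.8 ± 4.16 CPM in HCT116, at 0.66 ± 0.060. ATP6V0A1 rose by 0.69 ± 0.056 and 0.53 ± 0.050, and ATP6V0C by 0.64 ± 0.15 and 0.65 ± 0.12, where 72.1% of the ATP6V0C exon bases lie in same-strand genes, so its count is uncertain. The 20 genes of mTORC1, the Rag GTPases and folliculin, which set the lysosomal recruitment of TFEB, were mixed, with 7 higher and 4 lower in DKO-C1 and 8 higher and 7 lower in HCT116. RRAGA and RRAGC rose by 0.56 ± 0.075 and 0.52 ± 0.10 in DKO-C1 and by 0.57 ± 0.064 and 0.60 ± 0.098 in HCT116, with 22.9% of the RRAGC exon bases in a same-strand gene. RRAGD fell in both lines, by -0.38 ± 0.080 in DKO-C1 and -1.01 ± 0.080 in HCT116, and the responses differed by 0.63 ± 0.11 (adjusted p = 0.00015). TSC1 rose by 0.55 ± 0.073 and 0.48 ± 0.066, and RHEB fell by 0.35 in DKO-C1 (SE 0.057) and by 0.20 in HCT116 (SE 0.053). DEPTOR was at 0.25 ± 0.33 in DKO-C1 and was called lower by -0.72 ± 0.23 in HCT116.

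**Figure D4:**
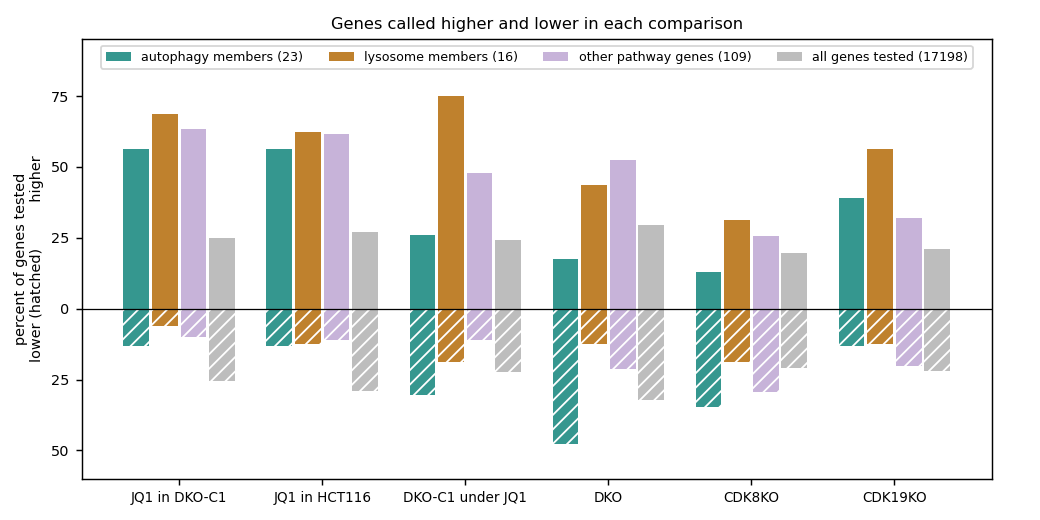
Percent of genes called higher (above 0, plain) and lower (below 0, hatched) in each comparison, for the 23 autophagy members, 16 lysosome members, 109 other pathway genes and all 17198 genes tested. In both JQ1 comparisons the members and the other pathway genes exceed the background of higher calls, at 56.5% to 68.8% against 24.9% and 27.0%. Calls are relative to the median gene. ERCC factors lower the number called higher to 7 of 42 members in DKO-C1 and 5 in HCT116, beside 5.37% and 4.66% of all genes tested.

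In the libraries labelled DKO the other lysosomal enzymes and activators were mostly higher, at 20 of 29 with 1 lower, with a median change of 0.46 log2. The other membrane and sorting genes followed at 11 of 18 with 2 lower, with a median of 0.39. The other V-ATPase subunits were even, with 6 higher and 6 lower. Of all genes tested, 29.5% were called higher and 32.1% lower in DKO. In DKO-C1 under JQ1 the enzymes and activators were again mostly higher than in HCT116+JQ1, at 22 of 29 with 1 lower and a median of 0.45. The shares of all genes tested were 24.3% higher and 22.4% lower in that comparison. With ERCC factors the medians of the enzymes and activators were -0.44 in DKO and -0.47 in DKO-C1 under JQ1, beside -0.92 and -0.90 for all genes tested.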

How the data were processed

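RNA from 26 libraries was sequenced as paired reads, and the authors deposited 1 table of raw counts per gene, with ERCC spike-in sequences among its features. Per the submitters' processing notes, STAR 2.5.2, featureCounts of Subread 1.6.3 and hg38 were used. How strand was handled, which annotation was counted and which kit made the libraries: not given in the sources used here. Without a stated strand, reads of overlapping antisense genes cannot be told apart. Names of 22 columns matched 1 sample each, and 4 matched a group only. The 3 DKO-C2 columns were assigned by elimination of the other groups, and libraries given a letter carry no replicate number.

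The deposited counts were fitted in R 4.3.3 with edgeR 4.0.16 (TMM factors, filterByExpr at a count of 10 and a total of 15, quasi-likelihood test). All 9 groups shared 1 fit, and p-values were Benjamini-Hochberg adjusted over 17198 genes. Standard errors are the log2 change divided by the square root of F. Knockout effects are the mean of 2 sublines minus HCT116. The JQ1 difference is an interaction term. ERCC sequences stayed out of library sizes. GENCODE exon models on hg38 gave lengths and overlaps. Any member could be named. Values of every library were to be given for the 5 largest rises and 3 largest falls called in each JQ1 comparison, the 4 largest called differences, the 2 largest called rises and falls per knockout, and MAP1LC3B, SQSTM1, TFEB, LAMP1 and CTSD, and those of NBR1, ATP6V0D1, PSAP and LAMP2 under JQ1, and of GABARAPL1 in the CDK19KO sublines, were added after their values were seen. From each other list the 2 largest called rises and falls in each JQ1 comparison were named. The members and lists were chosen with earlier results of these data known. Comparisons of DKO, CDK8KO and CDK19KO, and of JQ1 in HCT116, share the HCT116 libraries. The procedure was tested on simulated data. Alternatives were DESeq2, DESeq2 size factors, ERCC factors, no filter on low counts, a higher filter, a replicate block, the compared libraries alone, single sublines and each library left out. ERCC factors for CDK8KO and CDK19KO and the contrast between sublines were added after seeing the data.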

Additional observations from a re-analysis of the deposited data

Results flagged for a closer look

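The JQ1 response differed between DKO-C1 and HCT116, by the interaction test, for 5 of the 42 members, beside 8.59% of all genes tested. That member count is only little above the share of all genes. The DKO-C1 response minus the HCT116 response was 0.80 log2 for ATG12, 0.44 for NEU1, 0.43 for GABARAPL1, 0.24 for NBR1 and -0.31 for SQSTM1. NBR1 lost its call without any of 5 libraries and GABARAPL1 without 1. With ERCC factors ATG12 alone was called. ERCC reads, which no comparison on the TMM scale uses, made up between 2.17% and 4.36% of counts in the 12 single-knockout libraries, whose labels name no spike-in.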

How the results depend on the processing

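Many of the values that moved did so on the ERCC scale. Other counts of members moved when single libraries were left out, in single sublines or with other settings. With ERCC factors 5 members were higher and 13 lower under JQ1 in HCT116, 7 were higher in DKO-C1, the difference had 1 higher and 0 lower, and 0 were higher and 42 lower in DKO, DKO-C1 under JQ1, CDK8KO and CDK19KO. Of all genes tested, 4.66% were higher and 44.6% lower on that scale under JQ1 in HCT116, and 5.37% higher in DKO-C1. The share of all genes called lower was 83.3% in DKO, 78.9% in DKO-C1 under JQ1, 94.3% in CDK8KO and 97.8% in CDK19KO. Among the genes chosen by rule for library values in each comparison, those that turned negative there were, for JQ1 in DKO-C1, SQSTM1 (-0.07) and LAMP1 (-0.05), and for JQ1 in HCT116, LAMP1 (-0.21). Other small called rises, such as ATG13, BECN1, GAA and ATP6V1H in both lines and NBR1 (-0.11) and LAMP2 (-0.13) in HCT116, also turned. All members called higher turned in DKO (12), DKO-C1 under JQ1 (18, with LAMP2 at -0.36 and NEU1 at -0.42), CDK8KO (8) and CDK19KO (19). For genes chosen by that rule the values that turned, including some not called on the TMM scale (TFEB in DKO, MAP1LC3B and TFEB in CDK8KO, MAP1LC3B in CDK19KO), were in DKO CTSB (-0.43), LAMP2 (-0.48), MAP1LC3B (-0.51), TFEB (-0.84), LAMP1 (-0.65) and CTSD (-0.57), and in DKO-C1 under JQ1, MAP1LC3B (-0.50), LAMP1 (-0.62) and CTSD (-0.56). In CDK8KO they were CTSD (-0.91), ULK1 (-0.91), MAP1LC3B (-1.20), TFEB (-1.21) and LAMP1 (-1.11), and in CDK19KO, TFEB (-1.15), ULK1 (-1.19), MAP1LC3B (-1.56), SQSTM1 (-1.32), LAMP1 (-1.49) and CTSD (-1.41). Without the low-count filter CDK19KO had 3 lower. With only the libraries compared the difference had 3 lower and CDK8KO 13 higher. Subline C2 alone gave 14 higher in CDK8KO, and 10 higher and 8 lower in CDK19KO. Of 17198 genes tested, 5840 and 7293 were called in either direction in those 2 comparisons. DESeq2 gave 7 lower in DKO-C1 under JQ1. The cause of these shifts was not tested.

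Same-numbered libraries did not deviate together (r between -0.354 and 0.361 over 63 pairs, 13 of them over 0.1, and 2 of 21 libraries correlated best with their own number), so the numbers were not taken to pair libraries. A fit with the replicate block, over numbered libraries only and so without DKO-C2 and DKO-C1+JQ1 replicate a, called 3 members lower under JQ1 in DKO-C1 and 2 lower in the difference. Leaving out DKO-C1+JQ1 replicate a with no block called 3 and 1.

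Leaving out 1 library at a time, counts higher and lower ranged over 21 to 24 and 2 to 5 for JQ1 in DKO-C1, 21 to 24 and 5 to 6 for JQ1 in HCT116, 2 to 5 and 1 to 1 for the difference, 13 to 19 and 6 to 11 for DKO-C1 under JQ1, 11 to 13 and 10 to 16 for DKO, 6 to 9 and 9 to 13 for CDK8KO, and 14 to 20 and 3 to 6 for CDK19KO. With 2 libraries in DKO-C1+JQ1, leaving 1 out assumes that the other varies like the remaining groups.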
